A study of Mus musculus with 6 samples.

Results

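The interleukin 1 family is a group of related cytokines, here the 9 genes Il1a, Il1b, Il1rn, Il18, Il33, Il1f5, Il1f6, Il1f8 and Il1f9, measured in tongue of inducible Dek mice with and without doxycycline (DOX). Il1f5, Il1f6, Il1f8 and Il1f9 are also named Il36rn, Il36a, Il36b and Il36g. Members were taken as every non-control array probe whose accession belongs to 1 of these genes. Each gene had 1 probe, so the family was read by 9 of 55681 probes and by 9 of the 26256 genes and unnamed probes tested. In RefSeq (GRCm38.p6), 7 of the 9 genes lie on chromosome 2, Il18 on chromosome 9 and Il33 on chromosome 19. All 9 probes were well above background on all 6 arrays. Il1f10, a ligand of the same family, was not among the members chosen.

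Interleukin 1 cytokines alert tissue to damage or microbes, and most are made by the squamous epithelium of skin and mouth or by myeloid cells. Il1a encodes an agonist held inside epithelial cells and released on injury. Il1b encodes an agonist that inflammasome caspases activate, and Il1rn encodes the antagonist that competes with both for the receptor encoded by Il1r1. Il18 and Il33 encode separate alarm cytokines with their own receptors, and Il18bp encodes a soluble trap for interleukin 18. Il1f6, Il1f8 and Il1f9 encode the IL-36 agonists of stratified epithelium, and Il1f5 encodes the antagonist at their receptor, Il1rl2.

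Tongue RNA came from 6 C57Bl6 mice that all carried the iDek transgene, labelled as a DOX-inducible Dek that is both ubiquitous and squamous cell-specific. The 3 DOX mice received DOX for 2 weeks, and the 3 no DOX mice were untreated. Mice without the transgene were not analysed here, so an effect of DOX itself and an effect of induced Dek cannot be told apart. The series title mentions a carcinogen, whereas the sample labels name none, and ages were not given in the sources used here. RNA was labelled with Cy3 and hybridised to 1 Agilent mouse array per mouse, all on 1 slide. Each value below is the log2 of a probe's background-subtracted signal minus the 75th percentile of its own array, called the normalised log2 signal. It can be compared between arrays for 1 probe, but not between probes.

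Between 56.0% and 58.3% of probes were well above background on each array, and no spot was saturated. The number of arrays limits the precision. The 1 probe for Dek, the gene the transgene encodes, had normalised log2 signals of 2.10 to 2.30 without DOX and 2.27 to 2.41 with DOX. It differed by a log2 value of 0.17 ± 0.11 (SE, limma adjusted p = 0.456), a 1.12-fold difference that did not pass the test; whether this probe reads the transgene is not known here. Of the markers of tongue tissue, 10 of 10 skeletal muscle and 17 of 17 suprabasal keratinocyte genes were well above background on all 6 arrays. RNA was from whole tissue, so fewer cells of a type and less RNA per cell cannot be told apart. DOX replicates 2 and 3 lay in the second row of the slide and the other 4 arrays in row 1, so a value within row 1 sets DOX replicate 1 alone against the 3 untreated mice and is given below with no p.

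RefSeq upstream sequences were available for 8 of the 9 members in the promoter table used (GRCm38.p6), which does not list Il1f6. The 250 bases before the annotated start are shown for Il1a and Il1b, both agonists of the same receptor but with opposite signs of difference here, and for Il1f5 and Il1f9, whose profiles over the arrays had the highest correlation of any pair of members. The regions are chr2:129309973-129310222 and chr2:129371140-129371389 on the minus strand and chr2:24276704-24276953 and chr2:24186226-24186475 on the plus strand. For Il1a and Il1b the listed start is not the outermost start of the gene. Capitals mark matches to the motifs searched.
Il1a: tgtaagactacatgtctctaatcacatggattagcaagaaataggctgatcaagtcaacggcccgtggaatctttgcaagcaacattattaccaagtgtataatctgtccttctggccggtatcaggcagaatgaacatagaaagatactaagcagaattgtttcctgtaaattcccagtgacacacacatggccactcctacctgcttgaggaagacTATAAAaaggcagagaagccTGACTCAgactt
Il1b: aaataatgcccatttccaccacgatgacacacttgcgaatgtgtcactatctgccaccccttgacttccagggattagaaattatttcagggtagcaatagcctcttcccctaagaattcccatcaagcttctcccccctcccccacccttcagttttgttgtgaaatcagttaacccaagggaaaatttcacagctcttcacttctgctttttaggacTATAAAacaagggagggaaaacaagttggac
Il1f5: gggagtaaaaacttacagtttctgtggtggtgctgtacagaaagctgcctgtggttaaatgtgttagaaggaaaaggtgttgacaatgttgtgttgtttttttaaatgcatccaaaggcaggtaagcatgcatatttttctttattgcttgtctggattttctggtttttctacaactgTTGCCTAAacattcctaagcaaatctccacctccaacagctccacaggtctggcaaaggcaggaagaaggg
Il1f9: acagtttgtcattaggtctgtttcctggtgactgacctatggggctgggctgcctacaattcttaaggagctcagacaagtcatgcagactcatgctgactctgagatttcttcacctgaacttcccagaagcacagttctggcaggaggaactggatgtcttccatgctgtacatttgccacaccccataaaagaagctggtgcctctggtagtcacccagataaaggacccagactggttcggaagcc

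Both strands of the 8 available sequences were searched for 8 motifs. AP-1 was searched as TGANTCA, the element of Fos and Jun factors. The core of NF-kB sites was searched as GGNNTTTCC, and the element of C/EBP factors as TTGCNNAA. The D-box of clock-controlled genes was written TTANNTAA, whereas the E-box was the palindrome CACGTG alone. The core bound by the AhR receptor was GCGTG, while E2F elements of cell cycle genes were searched as TTTNNCGC. The TATA box, which positions transcription starts, was searched as TATAAA only. Il1a held an AP-1 match from -12 to -6 and a TATA match from -32 to -27, counted from the start site. Il1b held a TATA match from -31 to -26, close to the same distance from its start as in Il1a. Il1f5 held a C/EBP match from -71 to -64, and Il1f9 held none of the 8 motifs. Outside the sequences shown, Il1f8 held an AP-1 match from -236 to -230. Il1rn held an AP-1 match from -141 to -135 that overlapped an AhR core match from -136 to -132. Il18 held a D-box match from -184 to -177 and a TATA match on the opposite strand from -175 to -170. Il33 held a TATA match from -203 to -198, far from the position seen in Il1a and Il1b. Over all 32851 promoters of the table in the same window, 6.75% held AP-1, 12.4% TATA, 9.56% C/EBP, 5.43% the D-box and 28.2% the AhR core. The motifs without a match in these 8 sequences were present in 4.93% (NF-kB core), 6.02% (E-box) and 4.28% (E2F) of promoters. These are letter matches in 1 window per gene and not measured binding sites.

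The comparison of DOX with no DOX asks how these cytokines differed in tongue after 2 weeks of DOX. None of the 9 passed limma's test at an adjusted p of 0.05, with Il1a nearest to the threshold. Across all 26256 genes and unnamed probes, 0.278% rose and 0.126% fell at that threshold. With an unadjusted p under 0.05 there were 2 members, Il1a and Il1f5, of 9, beside 18.6% of all genes and unnamed probes. In 3 of 9 members, Il1a, Il1f5 and Il1f6, all 3 DOX values lay above all 3 no DOX values, beside 12.7% of all genes and unnamed probes. In no member did all DOX values lie below the no DOX values, beside 12.6% of all. The mean was higher with DOX in 6 members and lower in 3. The median difference over the 9 members was 0.39 on the log2 scale, against -0.0060 over all genes and unnamed probes. With 3 arrays against 3, an exact permutation test of a single gene cannot go below p = 0.1.

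**Figure D1:**
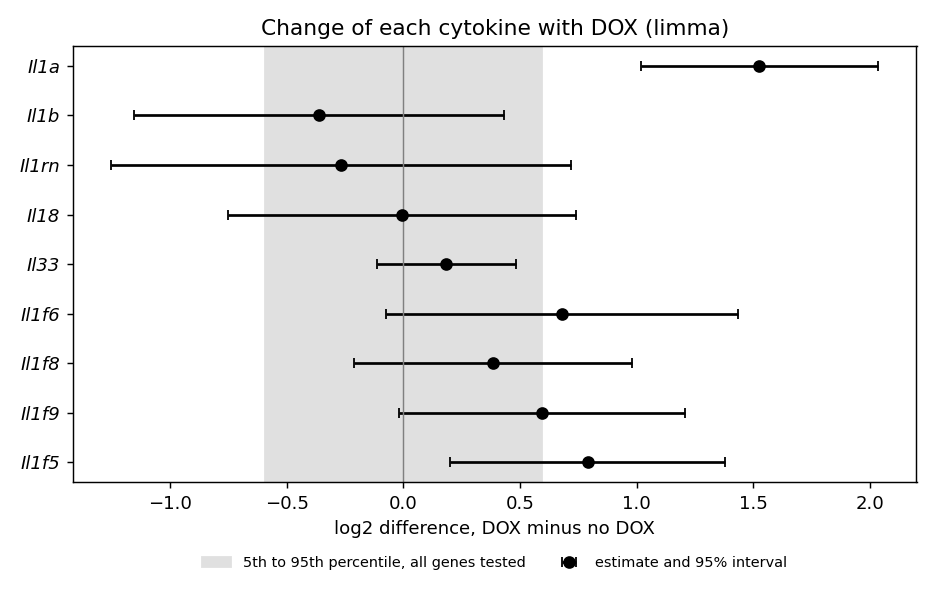
Difference of each cytokine between DOX and no DOX tongue on the log2 scale (horizontal axis), with points for limma estimates, bars for 95% confidence intervals and grey for the 5th to 95th percentile of all genes and unnamed probes tested (-0.59 to 0.60). The interval of Il1a, from 1.02 to 2.04, lies wholly to the right of the grey band, and the intervals of all members other than Il1a and Il1f5 include 0.

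Il1a, the epithelial agonist, had the largest difference of the 9. Its normalised log2 signals were -4.26, -4.30 and -4.13 in no DOX replicates 1 to 3 and -2.37, -2.57 and -3.17 in DOX replicates 1 to 3. All 3 DOX mice lay above all 3 untreated mice, and the untreated mice were close to one another. The background-subtracted signals before scaling were 13.8, 12.4 and 14.0 without DOX and 47.9, 42.4 and 28.7 with DOX, near the dim end of the array although above background on each. The difference was 1.53 ± 0.21 (SE) on the log2 scale, or 2.88-fold (95% interval 2.03 to 4.10, n = 3 per group). Its limma adjusted p was 0.0522, just outside the threshold, and its rank by p was 123 of 26256. The exact two-sided permutation p was 0.1, the smallest this design allows. Within slide row 1 the difference was 1.86. Relative to the untreated mean, the DOX mice stood at 3.63-fold, 3.17-fold and 2.08-fold in replicates 1 to 3, so the third was the least different. Without DOX replicate 3 the difference was 1.76 (adjusted p = 0.0365), and without each of the other arrays in turn the adjusted p lay between 0.104 and 0.184. Background correction with an offset of 50, which is larger than every Il1a signal given above, gave 0.42 (adjusted p = 0.116).

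Il1b, the inflammasome-dependent agonist, did not pass the test, and its value depended on which DOX mouse was counted. Its probe is printed in 10 spots per array, of which 8 to 10 were used, and the SD between spots of 1 array was 0.0817 to 0.171 on the log2 scale, which covers printing and reading error only. The normalised log2 signals were -1.61, -2.12 and -1.87 without DOX and -1.47, -2.56 and -2.66 with DOX. DOX replicate 1 was the highest of the 6 arrays and DOX replicates 2 and 3 were the lowest, so the groups overlapped. The difference was -0.36 ± 0.33 (SE), or 0.779-fold (95% interval 0.449 to 1.35, limma adjusted p = 0.615). Without DOX replicate 1 it was -0.74 ± 0.18 (limma adjusted p = 0.224), and without DOX replicate 3 it was -0.15 (adjusted p = 0.854). Within slide row 1 the sign turned and the value was 0.40.

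Il1rn, the antagonist of both agonists, also overlapped between the groups. Its normalised log2 signals were -2.15, -2.03 and -1.49 without DOX and -1.29, -2.26 and -2.92 with DOX. The highest and the lowest of the 6 arrays were both DOX mice. The difference was -0.27 ± 0.41 (SE), or 0.832-fold (95% interval 0.420 to 1.65, limma adjusted p = 0.786). Leaving out DOX replicate 3 turned its sign, to 0.12 (adjusted p = 0.888), and leaving out DOX replicate 1 gave -0.70 (adjusted p = 0.367). Within slide row 1 it was 0.60.

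**Figure D2:**
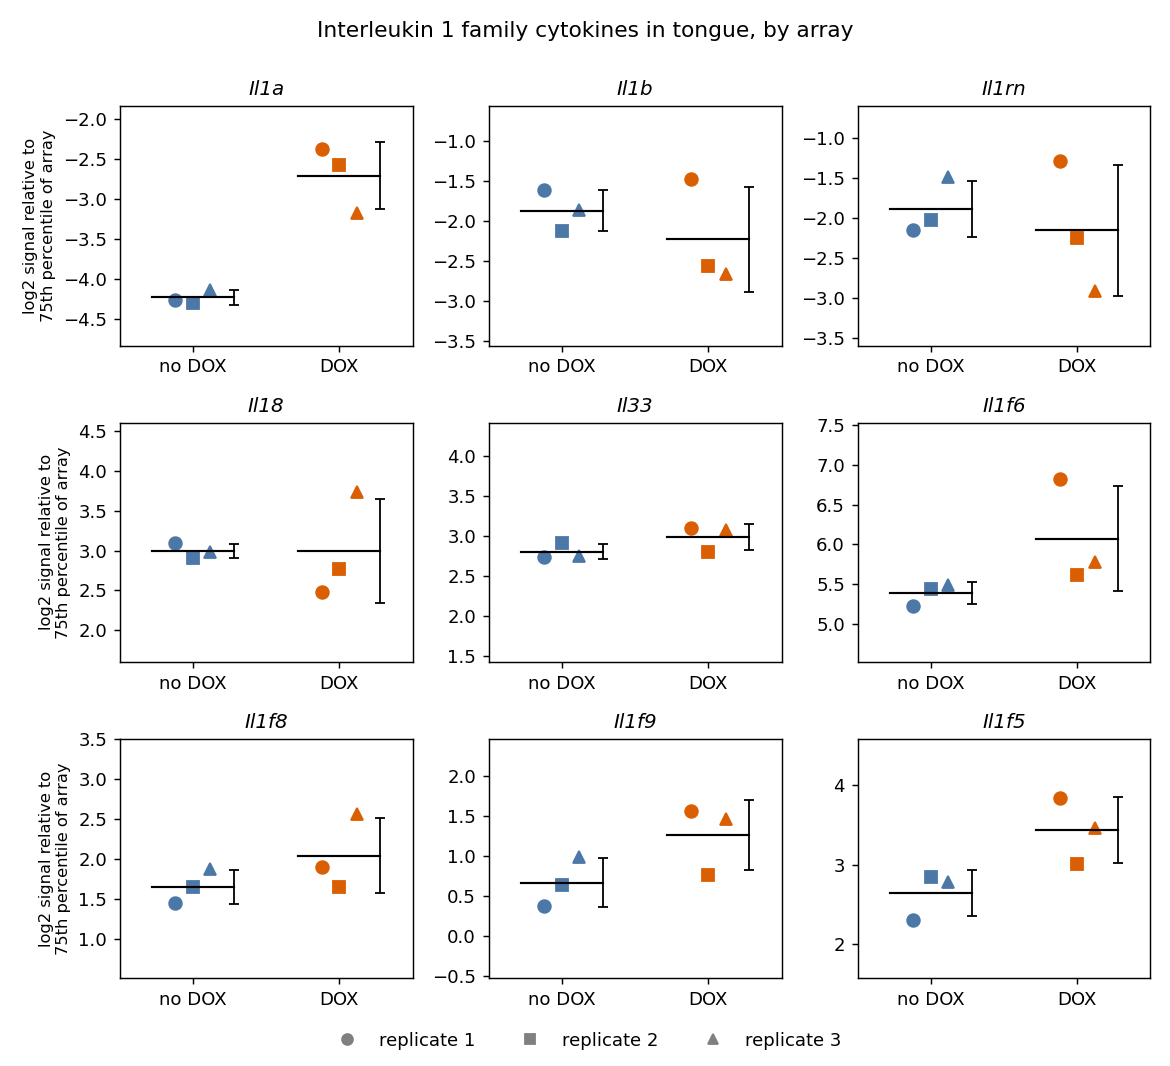
Normalised log2 signal of the 9 cytokines (vertical axis, log2 signal relative to the 75th percentile of the array) in no DOX and DOX tongue, with 1 symbol per mouse, a line at the group mean and a bar of 1 SD (n = 3). The groups do not overlap for Il1a, Il1f6 and Il1f5, and DOX replicate 1 (circle) is the highest mouse for 7 of the 9 genes.

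Il18, which encodes an interferon-inducing cytokine, had nearly equal group means. Its normalised log2 signals were 3.09, 2.91 and 2.99 without DOX and 2.48, 2.77 and 3.73 with DOX. The untreated mice lay between a lower pair and a higher single DOX mouse. The difference was -0.0044 ± 0.31 (SE), or 0.997-fold (95% interval 0.595 to 1.67, limma adjusted p = 0.996). The SD over mice was 0.09 without DOX and 0.66 with DOX. The value was -0.37 without DOX replicate 3, the high mouse (adjusted p = 0.243), and -0.52 within slide row 1.

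Il33, which encodes a nuclear alarm cytokine of barrier cells, varied least over the arrays. Its normalised log2 signals were 2.74, 2.92 and 2.75 without DOX and 3.10, 2.80 and 3.07 with DOX. One DOX mouse, replicate 2, fell within the range of the untreated mice and the other 2 were above it. The difference was 0.19 ± 0.12 (SE), or 1.14-fold (95% interval 0.924 to 1.40, limma adjusted p = 0.475), and 0.30 within slide row 1.

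The IL-36 genes, 3 agonists and 1 antagonist, all had higher means with DOX, and none of the 4 passed the test. Il1f6, an agonist, had normalised log2 signals of 5.23, 5.44 and 5.49 without DOX and 6.82, 5.61 and 5.78 with DOX. All DOX mice were above all untreated mice, but DOX replicates 2 and 3 only slightly so and replicate 1 by far the most. The difference was 0.68 ± 0.32 (SE), or 1.60-fold (95% interval 0.951 to 2.71, limma adjusted p = 0.304). Without DOX replicate 1 it was 0.31 (adjusted p = 0.421), and within slide row 1 it was 1.43.

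Il1f8, the second agonist, had values of 1.45, 1.65 and 1.87 without DOX and 1.90, 1.66 and 2.57 with DOX. DOX replicate 3 was the high mouse here, and DOX replicate 2 lay among the untreated mice. The difference was 0.39 ± 0.25 (SE), or 1.31-fold (95% interval 0.865 to 1.98, limma adjusted p = 0.453), and without DOX replicate 3 it was 0.12 (adjusted p = 0.733). Within slide row 1 it was 0.25. Il1f9, the remaining agonist, had values of 0.38, 0.64 and 0.99 without DOX and 1.56, 0.77 and 1.47 with DOX. DOX replicates 1 and 3 were above every untreated mouse, and replicate 2 was not. The difference was 0.60 ± 0.26 (SE), or 1.51-fold (95% interval 0.989 to 2.31, limma adjusted p = 0.276), and 0.89 within slide row 1.

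Il1f5, the IL-36 receptor antagonist, had normalised log2 signals of 2.31, 2.84 and 2.78 without DOX and 3.84, 3.01 and 3.46 with DOX. All 3 DOX mice were above all 3 untreated mice. The difference was 0.79 ± 0.25 (SE), or 1.73-fold (95% interval 1.15 to 2.60, n = 3 per group). Its interval excluded 0 and its unadjusted p was 0.016, but the limma adjusted p over all probes was 0.174. Within slide row 1 the value was 1.19, and leaving out each array in turn gave 0.59 to 1.00.

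Agonists were also set against their antagonist, trap or receptor within each array, over 7 pairs. The change of such a difference says whether 2 probes differed unequally with DOX. Il1a minus Il1rn was -2.11, -2.28 and -2.65 without DOX and -1.09, -0.31 and -0.26 with DOX. Every DOX mouse was above every untreated mouse, with a change of 1.79 ± 0.31 (SE). The exact two-sided permutation p was 0.1, the smallest possible, and 0.7 after Benjamini-Hochberg adjustment over the 7 pairs. The offset background correction lowered this change to 0.49.

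The other 6 pairs overlapped between the groups. The change was -0.09 ± 0.32 for Il1b minus Il1rn, with an exact permutation p of 0.7. For the IL-36 agonists against their antagonist Il1f5, it was -0.11 ± 0.22 for Il1f6 (exact permutation p = 0.7), -0.40 ± 0.32 for Il1f8 (exact permutation p = 0.3) and -0.19 ± 0.15 for Il1f9 (exact permutation p = 0.2). The change for Il1f8 depended on single mice, at -0.13 without DOX replicate 1 and -0.65 without DOX replicate 3. Il18 minus its trap Il18bp changed by 0.10 ± 0.49 (exact permutation p = 0.9), and Il33 minus its receptor Il1rl1 by 0.20 ± 0.26 (exact permutation p = 0.6).

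**Figure D3:**
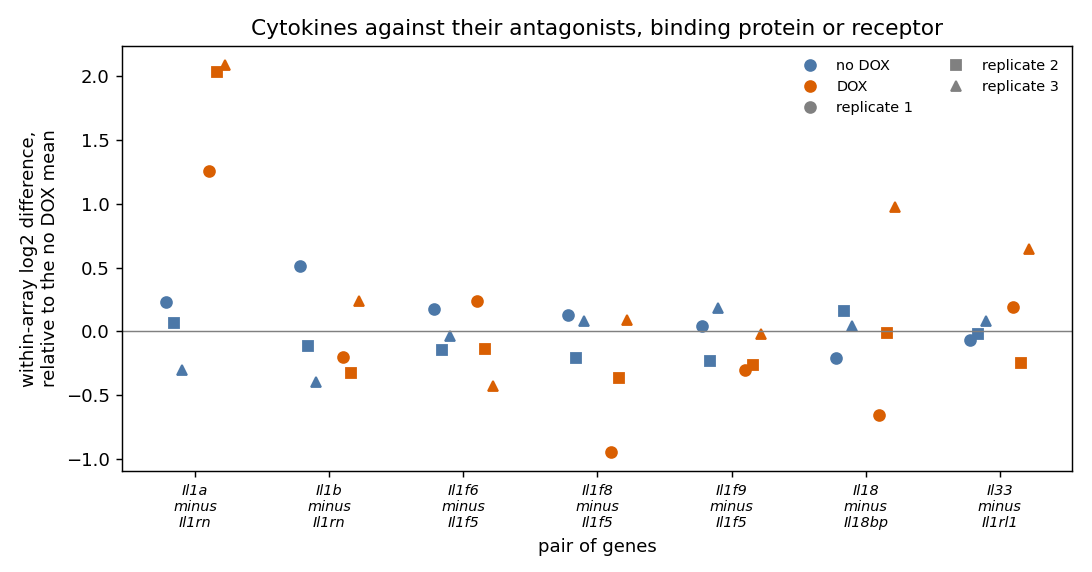
Within-array log2 difference of each of 7 gene pairs relative to its no DOX mean (vertical axis), 1 symbol per mouse. For Il1a minus Il1rn the 3 DOX mice lie above the 3 no DOX mice, and for the other 6 pairs the groups overlap.

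The arrays of single mice differed in a way that many members shared. DOX replicate 1 held the highest value of 7 members, and DOX replicate 3 held the highest of Il18 and Il1f8. No DOX replicate 1 held the lowest value of 5 members. The shares of all genes with their highest or lowest value on these arrays were not counted, so these counts cannot be called particular to the members. The SD over mice was larger with DOX than without for 9 of 9 members, beside 56.6% of all genes and unnamed probes. The ratio of the SDs ranged from 1.41 for Il1f9 to 7.22 for Il18. The DOX mice thus differed more from one another than the untreated mice did in each member. This held also for Il1a, Il1f5 and Il1f6, where all 3 DOX mice lay above every untreated mouse. The no DOX arrays all lay in slide row 1, whereas the DOX arrays lay in both rows. For DOX replicate 1 against replicates 2 and 3, mouse and slide row cannot be told apart.

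Over the 6 arrays, profiles formed a few recognisable shapes, given as Pearson correlations without a test because the arrays share the group difference. The antagonist Il1f5 ran with the agonists Il1f9 (0.934) and Il1f6 (0.903), and with Il33 (0.897). Il1f8 followed Il1f9 (0.804) more than Il1f6 (0.334). Il1b ran with its antagonist Il1rn (0.796), and both were high in DOX replicate 1 and low in DOX replicates 2 and 3. Il1a was unlike Il1b (-0.188) and was nearer to Il1f5 (0.795). Il18 ran opposite to Il1rn (-0.823).

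**Figure D4:**
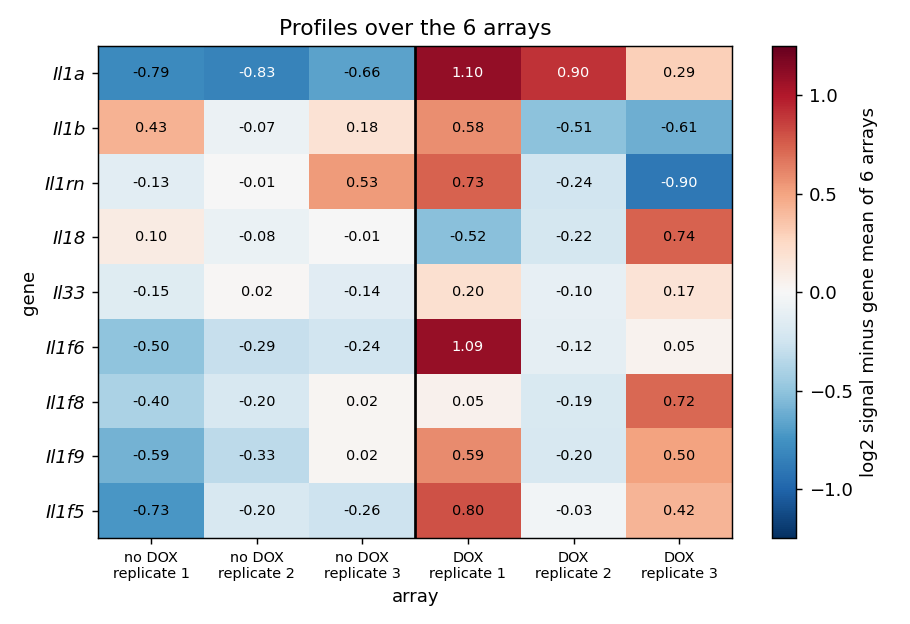
Normalised log2 signal of each cytokine (rows) on each of the 6 arrays (columns) minus the mean of that gene over the arrays, printed in each cell and coloured from blue (below) to red (above). Il1a is below its mean on all 3 no DOX arrays and above it on all 3 DOX arrays, and Il1f6 reaches 1.09 on DOX replicate 1 against 0.05 and -0.12 on the other DOX arrays.

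The genes most like each member were found among 15204 named genes by the root mean square (RMS) difference of mean-centred log2 signals over the 6 arrays, for members whose range was at least 1. Those nearest to Il1a were Ercc6l (RMS 0.102), a DNA helicase of mitosis, Mybl2 (0.145), a cell cycle transcription factor, and H1f5 (0.187), a linker histone. Mybl2 passed the test with DOX, at 1.56 (limma adjusted p = 0.0241). A log2 difference close to that of Il1a follows from the way these genes were picked. Ercc6l, at 1.51 (adjusted p = 0.0582), and H1f5, at 1.29 (adjusted p = 0.0665), did not pass.

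Nearest to Il1b were Il2ra (RMS 0.0953), Mab21l3 (0.117) and Xlr4a (0.131), of which Il2ra encodes an interleukin 2 receptor chain. Nearest to Il1rn were Mgarp (RMS 0.176), Tnf (0.187) and Slc5a1 (0.193), of which Tnf encodes an inflammatory cytokine. Nearest to Il18 were Aif1l (RMS 0.0938), Tm7sf2 (0.0956) and Pramel13 (0.0978), of which Tm7sf2 encodes a sterol synthesis enzyme. For the IL-36 genes, Il1f5 was nearest to Dusp5 (RMS 0.0718), a phosphatase of ERK kinases, then Tead4 (0.0999) and Eif1a (0.103). Il1f6 was nearest to Gch1 (RMS 0.0931), which starts tetrahydrobiopterin synthesis, then Dntt (0.127) and Adgrb2 (0.130). Il1f8 was nearest to Anxa9 (RMS 0.0644), then to Defb4 (0.0671), a beta-defensin of epithelium, and Sgpp2 (0.0712). Il1f9 was nearest to Abca12 (RMS 0.0770), a lipid transporter of the epidermal barrier, then to Tgfa (0.0777), an EGF receptor ligand, and Stfa3 (0.0866). None of these genes, from Il2ra to Stfa3, passed the test with DOX. They too were picked for profiles like those of the members, so differences of similar size follow from the choice. Il33 had too small a range for this comparison.

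The rest of the pathway was read from 5 gene lists holding 69 tested genes of 86 listed, and 0 of the 69 passed the test, beside the 0.278% and 0.126% given above. Of the receptors, decoys and the ligand Il1f10, 9 of 10 genes were tested, 1 was higher and 8 were lower in mean with DOX, and the list median was -0.33. The 1 higher gene was Il1f10 itself, at 0.52 ± 0.47 (limma adjusted p = 0.610; named after its values were seen). Il18r1, which encodes the interleukin 18 receptor chain, had values of -1.02, -1.05 and -1.30 without DOX and -1.87, -2.68 and -2.01 with DOX. All its DOX values were below all untreated values, with a difference of -1.07 ± 0.23 (SE, limma adjusted p = 0.0991). Il1r1, the receptor for Il1a and Il1b, had values of -0.07, -0.11 and -0.39 without DOX and -0.66, -0.72 and -0.68 with DOX. Its groups were likewise apart, with a difference of -0.50 ± 0.12 (limma adjusted p = 0.121). In these 2 of the 9 tested genes all DOX values lay below all no DOX values, beside 12.6% of all genes and unnamed probes. In none did all DOX values lie above, beside 12.7% of all. The shared co-receptor Il1rap was at -0.52 ± 0.21 (adjusted p = 0.244), and the IL-36 receptor Il1rl2, above background on 2 of 3 DOX arrays, was at -0.63 ± 0.39 (adjusted p = 0.431). The summed linear level of the list was 6.31 to 7.17 times the 75th percentile without DOX and 5.23 to 5.96 times with DOX.

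The 18 signalling genes below these receptors, all tested, lay near 0, with 8 higher, 10 lower and a median of -0.0025. In 1 of them, Tab1, all DOX values lay below all no DOX values, beside 12.6% of all genes and unnamed probes. In none did all DOX values lie above, beside 12.7% of all. The 4 with the smallest p were the kinase adaptors Tab1 (-0.28 ± 0.10, adjusted p = 0.207) and Tab3 (-0.21 ± 0.12, adjusted p = 0.404) and the kinases Irak4 (0.31 ± 0.19, adjusted p = 0.434) and Map3k7 (0.13 ± 0.10, adjusted p = 0.547). Of the inflammasome and processing genes, 19 of 23 were tested, with 7 higher, 12 lower and a median of -0.11. All DOX values lay above all no DOX values in 2 of the 19, Ctss among them, and below in 2, Nlrp1b and Gsdmd. The shares of all genes and unnamed probes were 12.7% and 12.6%. Nlrp1b, an inflammasome sensor, was at -0.82 ± 0.17 with its groups apart (limma adjusted p = 0.0970). It was above background on 2 of 3 DOX arrays, so it entered the test through the no DOX arrays alone. Pycard, the inflammasome adaptor, was at -0.53 ± 0.19 (adjusted p = 0.222), and Gsdmd, which forms the pore that releases Il1b protein, at -0.34 ± 0.15 (adjusted p = 0.302). Ctss, a lysosomal protease, was at 0.38 ± 0.14 (adjusted p = 0.217).

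Of the genes known to respond to IL-1 or IL-36, 17 of 26 were tested, with 10 higher, 7 lower and a median of 0.07. All DOX values lay above all no DOX values in 1 of the 17, Ptgs2, and below in 1, Nos2. The shares of all genes and unnamed probes were 12.7% and 12.6%. Ptgs2, the inducible cyclooxygenase, was at 1.44 ± 0.35 (limma adjusted p = 0.122), with its groups apart and 2 of 3 untreated arrays above background. Nos2, the inducible nitric oxide synthase, was at -0.29 ± 0.12 (adjusted p = 0.257), and the cytokine Il24 at 0.38 ± 0.17 (adjusted p = 0.289). S100a9, a calprotectin subunit, had values of 6.09, 5.78 and 7.11 without DOX and 9.55, 7.81 and 6.57 with DOX. DOX replicate 1 was far above the rest and DOX replicate 3 was within the untreated range. The difference was 1.65 ± 0.75 (SE, limma adjusted p = 0.298). The summed level of this list was 134.5 to 262.9 times the 75th percentile without DOX, and 1341, 365.5 and 197.3 times in DOX replicates 1 to 3. S100a9 and S100a8, both on this list, made up most of the sum on each array. The sums therefore do not show the level of the other genes of the list. Of the genes known to respond to interleukin 18 or 33, 7 of 10 were tested, with 2 higher, 5 lower and a median of -0.18. Ifng, the interferon that interleukin 18 induces, was at -1.24 ± 0.48 (adjusted p = 0.242), and the others with the smallest p were Ccl24 (-0.52 ± 0.29), Areg (0.43 ± 0.32) and Il5 (-0.46 ± 0.35).

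**Figure D5:**
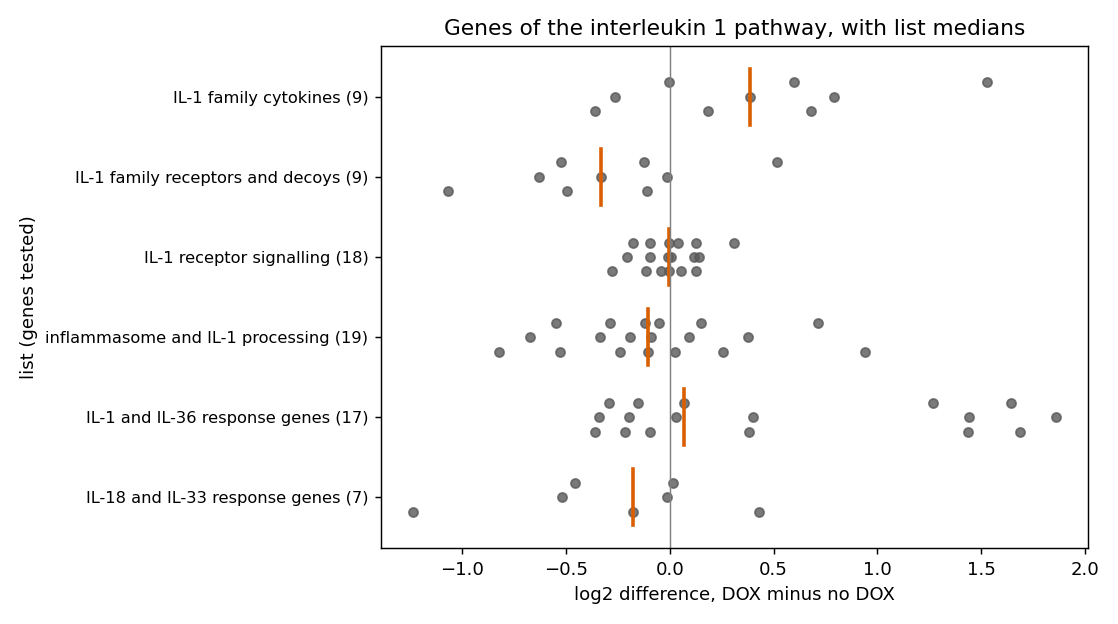
Log2 difference between DOX and no DOX tongue (horizontal axis) for each tested gene of 6 lists of the interleukin 1 pathway, 1 point per gene, with an orange line at the list median. The cytokine median is 0.39 and the receptor and decoy median is -0.33, while the 18 signalling genes stay between -0.28 and 0.31.

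Markers of the cells that could hold these cytokines moved in part with the same mice. Suprabasal keratinocyte markers, 17 of 17 tested, had a median of 0.38, with 11 higher, 6 lower and none past the test. Their summed level was 2517 to 3413 times the 75th percentile without DOX and 3212 to 4203 times with DOX. Of these markers, Klk5 was at 1.19 ± 0.27, Sprr1b at 1.33 ± 0.38 and Dsg3 at -0.87 ± 0.33. Basal keratinocyte markers, 9 of 9 tested, had a median of -0.36, with 2 higher, 7 lower and none past the test. In 5 of the 9, all DOX values lay below all no DOX values, beside 12.6% of all genes and unnamed probes. In none did all DOX values lie above. The sum of the basal markers, in the same unit, was 626.6 to 847.2 without DOX and 636.8 to 802.7 with DOX. Dst was at -1.14 ± 0.27, Itga6 at -0.49 ± 0.13 and Col17a1 at -0.47 ± 0.17. The 2 higher basal markers were Krt14, at 0.43 ± 0.35, and Krt5, at 0.06 ± 0.15. Krt5 made the largest part of the basal sum on each array.

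Neutrophil markers, 9 of 12 tested, had a median of 0.05, with 5 higher, 4 lower and none past the test. Their sums were 295.3 to 430.7 without DOX and 1459, 527.0 and 351.2 in DOX replicates 1 to 3. The mouse with the highest sum, DOX replicate 1, was also the highest for 7 of the 9 members, though S100a8 and S100a9 are made by keratinocytes too. Without S100a8 and S100a9, the sums of the other 7 were 221.9 to 247.3 without DOX and 242.6, 228.2 and 227.3 in DOX replicates 1 to 3. Csf3r made up most of these sums, with normalised log2 signals of 7.69 to 7.89 over the arrays. The sums therefore cannot show whether a mouse stood apart in the other markers. Ltf was at 1.51 ± 0.58 and Retnlg, above background on 1 of 3 DOX arrays, at -1.49 ± 0.72. Ngp and Mmp8 were not above background on all 3 arrays of either group, and Ly6g was not matched to a probe here. Macrophage markers, 10 of 11 tested, had a median of 0.37, with 8 higher and 2 lower, and sums of 19.5 to 21.1 without DOX and 20.8 to 29.1 with DOX. In 4 of the 10, all DOX values lay above all no DOX values, beside 12.7% of all genes and unnamed probes. In none did all DOX values lie below. Lyz2 was at 1.03 ± 0.17 (limma adjusted p = 0.0704), Fcgr1 at 1.05 ± 0.30 and C1qc at 0.54 ± 0.20. Fcgr1, among these 4 genes, was above background on 2 of 3 no DOX arrays and entered the test through the DOX arrays alone. Cd163 was not tested for low signal. T cell markers, 8 of 9 tested, had a median of -0.40, with 1 higher and 7 lower. Of the 8, 2 fell and 6 did not pass, beside 0.126% of all genes and unnamed probes that fell. Their sums were 8.26 to 9.17 without DOX and 8.23 to 9.60 with DOX. Cd4, the 1 higher gene, and Cd3e made up most of these sums, which therefore do not show the level of the other T cell markers. Cd247 (limma adjusted p = 0.0166) was at least 1.24-fold lower and Cd8a (limma adjusted p = 0.0241) at least 1.72-fold lower, as neither was well above background on any DOX array. Both entered the test through the no DOX arrays alone, so each p rests on DOX signals not well above background. Each bound sets the no DOX mean against, on each DOX array, the higher of the lowest signal well above background and the signal of the probe itself. The part of these cell types in the cytokine differences was not tested.

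Of the remaining marker lists none held a gene that passed. Fibroblast genes, 8 of 8 tested, had a median of -0.14, endothelial genes, 8 of 8 tested, -0.11, and skeletal muscle genes, 10 of 10 tested, 0.06. Mast cell genes, 6 of 8 tested, had a median of -0.01, Langerhans and dendritic cell genes, 9 of 10 tested, -0.06, and adipocyte genes, 6 of 7 tested, 0.12. Salivary gland genes, 10 of 12 tested, ranged from -4.22 to 6.51 with a median of -0.55, and their sums were 664.0 to 1337 without DOX and 698.8 to 1021 with DOX.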

How the data were processed

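Scanner files of 6 single-colour Agilent arrays (design annotation mm9) were used. Per the file headers, the deposited signal intensity of each spot was written by Agilent Feature Extraction 11.5.1.1, with background already subtracted. The deposited series value table, also on a linear intensity scale, equals that signal times 1 factor per array (3.70 to 3.99), and no source used here states how those factors were set. Its columns have medians of 102.5, 94.2 and 92.7 (no DOX replicates 1, 2 and 3) and of 90.01, 97.5 and 93.7 (DOX replicates 1, 2 and 3). Groups came from the treatment label. The 3 no DOX and 3 DOX samples are described by the labels as mice.

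Outlier spots (146 to 195 per array) were left out, spots of 1 probe were averaged, and log2 intensity minus the 75th percentile of each array was fitted with limma 3.58.1 in R 4.3.3. The test took 30934 of 55681 probes, those that 1 group or both had well above background in all 3 mice, and the brightest tested probe stood for a gene. Benjamini-Hochberg adjustment ran over all probes tested, with a threshold of 0.05. RefSeq tables (GRCm38.p6) gave 1 symbol to 28331 probes and none to 27350. Pairs of genes were compared with exact permutation tests. The fits were tested on simulated data. Named were all members, from each pathway list the 4 genes with the smallest p, from marker lists the 3 with the smallest p at most, and for each member the 3 genes most like it. A few other list genes are named for their part in a sum or for their direction, after their values were seen. The members and lists were chosen with earlier results of these data known. Alternatives covered background, scaling, filter, variance model, array weights, blocks, probe rule, threshold and leaving out each array.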

Additional observations from a re-analysis of the deposited data

How the results depend on the processing

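The count of genes and unnamed probes called was 106, and became 246 with normexp background correction (offset 50), 192 with a trended robust variance, 484 with array weights, 747 at an adjusted p of 0.1, 32 with slide row as a block, 11 within row 1, 1 with no filter on dim probes and 0 with the replicate block. Deviations of same-numbered mice had correlations of -0.115, -0.00917 and 0.0102, within the -0.136 to 0.149 of differently numbered mice. These values cannot exclude a pairing, and whether the mice were paired is not known here. With the replicate block Il1a had a limma adjusted p of 0.165. Leaving out each array gave 3 to 51 calls. The count of members called was 0, and became 1, always Il1a, at an adjusted p of 0.1 and, at 0.05, with probes above background on all 6 arrays, with a trended robust variance and with array weights; it was 0 to 1 when leaving out each array. Il18r1 and Nlrp1b, 2 pathway genes, passed at an adjusted p of 0.1. Signs turned for Il18 with normexp (0.068), for Il1rn with array weights (0.024), and for Il1b (0.40) and Il1rn (0.60) with the row block and within row 1; the cause was not tested. Leaving out each array moved Il1b from -0.74 to -0.15, Il18 from -0.37 to 0.25, and Il1rn from -0.70 to 0.12. It moved the pair changes from -0.29 to 0.16 (Il1b minus Il1rn), -0.28 to 0.052 (Il1f6 minus Il1f5), -0.65 to -0.13 (Il1f8 minus Il1f5), -0.31 to -0.10 (Il1f9 minus Il1f5), -0.33 to 0.48 (Il18 minus Il18bp) and -0.027 to 0.42 (Il33 minus Il1rl1). Il1a, Il33, Il1f5, Il1f6, Il1f8 and Il1f9 stayed higher with DOX in all 17 alternatives run. The value table, filters, variance model, replicate block and probe rule could not change these differences. The row block and row 1 alone gave equal values, so the 17 are not separate checks. The Il1a probe is dim, which limits its fold.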
